A study of Mus musculus with 6 samples.

Results

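Genes of the lysosome were followed in mouse mammary tumours: 36 genes, chosen by symbol, comprising 22 soluble hydrolases, 10 membrane proteins, 3 soluble proteins that are not enzymes of this kind (Psap, Npc2 and Grn) and the transcription factor gene Tfeb. Of the 19010 genes named on the array, 35 of these 36 were among them, with 79 probes, and Cd68 had no named probe. A probe was tested where its detection p was below 0.05 on 3 or more of the 6 arrays, and 31 members passed, among 10802 genes tested. They were 19 hydrolases, 9 membrane proteins, Psap, Npc2 and Grn. The members that did not pass were the hydrolase genes Gla, Plbd1 and Plbd2, whose probes were above background on 0 arrays, and Tfeb.

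The tumours came from 4T1 cells, a mammary carcinoma line of the BALB/c strain, that had received a lentivirus carrying mouse urokinase-type plasminogen activator (uPA, encoded by Plau) or the empty lentivirus. Cells were implanted in the fifth mammary fat pad of female BALB/c mice aged 8 to 10 weeks and tumours were taken at day 7, with 3 arrays labelled empty vector and 3 labelled uPA overexpression. The host mice carried no stated alteration, so tumour cells and host cells that had entered the tumour were read together, and fewer cells of a type and less RNA per cell cannot be told apart. The labels do not say whether the 3 tumours of a group came from separate mice, and p-values measure only the spread between these samples, which may be technical. Between 43.6% and 46.1% of probes were above background per array, and precision is limited by there being only 6 arrays. Plau itself went against the label: its log2 intensity was 12.97, 13.16 and 12.70 on the empty vector arrays and 11.94, 12.29 and 12.20 on the others, a fall of 0.80 on the log2 scale (SE 0.154, limma adjusted p = 0.0325). Leaving out any single array ended that call (adjusted p from 0.0517 to 0.108), while the difference stayed between -0.92 and -0.69. Whether the labels are exchanged or the Plau probe does not read the introduced gene was not tested. Exchanged labels would reverse the sign of each difference, while a probe that misses the introduced gene would bear on Plau alone. Directions below are therefore those of the labels, for the tumours labelled uPA overexpression against the empty vector tumours.

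Lysosomes are acidic organelles in which soluble hydrolases break down glycosaminoglycans, glycoproteins, lipids and proteins, while heavily glycosylated membrane proteins line the organelle and transporters export the products. Most of the hydrolases are tagged with mannose 6-phosphate in the Golgi and carried to the lysosome by mannose 6-phosphate receptors. TFEB and its relatives bind a short promoter element, the CLEAR element, that many lysosomal genes share. Phagocytes such as macrophages are rich in lysosomes, and tumour tissue holds many of them.

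Promoters were read for the letters of that element and of its core. RefSeq sequence of 300 bases (250 before to 50 after an annotated start, build GRCm38.p6) was held for 32 of the 36 members (all but Asah1, Npc1, Galns and Plbd2). The core CACGTG, which reads the same on both strands, lay in a promoter of 9 of these 32 genes (28.1%), against 1033 of 8736 genes tested on the array (11.8%) and 2187 of 27025 genes with a promoter in the table (8.09%). The 9 were Gla, Glb1, Gaa, Naglu, Sgsh, Plbd1, Lamp1, Mcoln1 and Cln3. Gla and Plbd1 were not among the tested genes. Of measured members with a promoter, 7 held the core and 21 did not. By class the share was 31.6% of the hydrolases and 33.3% of the membrane proteins. Among other genes of the lysosome it was 30.8% of vacuolar ATPase subunits and 23.5% of other hydrolases and helpers. For other lysosomal membrane proteins it was 10%, below that of all tested genes. These shares are for the core alone, which is shorter than the CLEAR element. The full element as searched, the core with set letters on each side, lay in a promoter of 1 of the 32 members, Cln3 (3.12%). It lay in a promoter of 68 of the 8736 genes tested on the array (0.778%). The other members with the core thus held no exact match to all letters of the element as searched. With fewer letters beside the core, on either strand, TCACGTG lay in promoters of all 9 (28.1%, against 7.13% of tested genes). TCACGTGA lay in those of Gla, Mcoln1 and Cln3 (9.38%, against 2.27% of tested genes). A match of letters is a description and does not show that a factor binds there. Windows around the sites of the 7 measured genes are shown 5′ to 3′ along the gene, with each core in capitals, so that the arrangement of sites can be compared.
Lamp1 (in chr8:13158911-13159210, plus strand): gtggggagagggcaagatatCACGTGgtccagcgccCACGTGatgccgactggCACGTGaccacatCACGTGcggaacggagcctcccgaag
Mcoln1 (in chr8:3500269-3500568, plus strand): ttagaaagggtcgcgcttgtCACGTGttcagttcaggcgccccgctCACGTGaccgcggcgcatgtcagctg
Cln3 (in chr7:126583187-126583486, minus strand): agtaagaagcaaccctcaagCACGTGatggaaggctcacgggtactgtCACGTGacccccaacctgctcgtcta
Glb1 (in chr9:114400828-114401127, plus strand): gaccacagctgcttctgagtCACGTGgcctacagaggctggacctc
Gaa (in chr11:119267713-119268012, plus strand): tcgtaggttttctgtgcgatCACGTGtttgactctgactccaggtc
Naglu (in chr11:101069844-101070143, plus strand): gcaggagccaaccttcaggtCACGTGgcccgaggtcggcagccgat
Sgsh (in chr11:119355461-119355760, minus strand): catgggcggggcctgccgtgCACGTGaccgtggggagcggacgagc
Lamp1 held 4 cores within its window, beginning 61, 45, 28 and 15 bases before the start, and Mcoln1 and Cln3 held 2 each.

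The promoters of Laptm5, Gusb and Grn are shown whole because these genes had the smallest p-values among members. None of the 3 holds the letters CACGTG in this window.
Laptm5 (chr4:130913066-130913365, plus strand): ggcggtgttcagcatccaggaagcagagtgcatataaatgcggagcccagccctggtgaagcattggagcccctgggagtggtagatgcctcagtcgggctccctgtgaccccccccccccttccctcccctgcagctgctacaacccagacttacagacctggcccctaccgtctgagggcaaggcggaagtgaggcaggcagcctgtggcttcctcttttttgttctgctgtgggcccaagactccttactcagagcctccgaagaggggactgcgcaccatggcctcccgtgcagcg
Gusb (chr5:130003000-130003299, minus strand): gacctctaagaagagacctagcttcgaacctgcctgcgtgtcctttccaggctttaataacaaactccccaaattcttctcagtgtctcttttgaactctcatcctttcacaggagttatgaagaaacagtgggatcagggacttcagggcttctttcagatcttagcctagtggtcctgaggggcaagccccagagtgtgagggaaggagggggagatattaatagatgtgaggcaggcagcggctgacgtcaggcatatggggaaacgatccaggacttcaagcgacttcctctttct
Grn (chr11:102430257-102430556, plus strand): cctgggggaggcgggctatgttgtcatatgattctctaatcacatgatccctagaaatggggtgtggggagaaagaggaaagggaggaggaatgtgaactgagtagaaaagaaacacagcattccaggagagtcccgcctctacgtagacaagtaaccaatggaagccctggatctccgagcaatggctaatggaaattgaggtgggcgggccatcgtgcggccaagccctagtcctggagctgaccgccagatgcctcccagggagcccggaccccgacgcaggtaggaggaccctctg

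Most lysosomal members had slightly higher values in the tumours labelled uPA overexpression, but no single member passed the test. Of 31 measured members 0 rose and 0 fell at a limma adjusted p under 0.05, where 2.31% of all tested genes rose and 3.11% fell (5.42% in either direction). An ordinary test without shared variance called 0 of all 10802 genes, so it could say nothing of the members. At an unadjusted p under 0.05, 5 members were higher (Laptm5, Gusb, Grn, Arsb and Tpp1) and 0 lower, beside 9.96% and 11.4% of all genes. Differences were above 0 for 23 of 31 members and for 49.5% of all genes, with a median of 0.13 for members and 0.00 for all genes, in log2 units. The groups did not overlap, with every array of a group on the same side, for 8 members higher and 1 lower, beside 14.2% and 15.5% of all genes (29.7% in either direction). The series text gives thresholds of a fold above 1.5 with an unadjusted p under 0.05. By the probe that stands for each gene, Arsb alone was higher under these, where 3.18% of all genes were higher and 4.4% lower. A further Gusb probe also met them (2.01-fold, limma unadjusted p = 0.0145). Grn, Gusb and Laptm5 were called, all higher, when background was left uncorrected, when the offset was 50 and in the deposited processed values. In these fits more of all genes rose as well, 367, 348 and 367 of 10802, against 250.

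**Figure D1:**
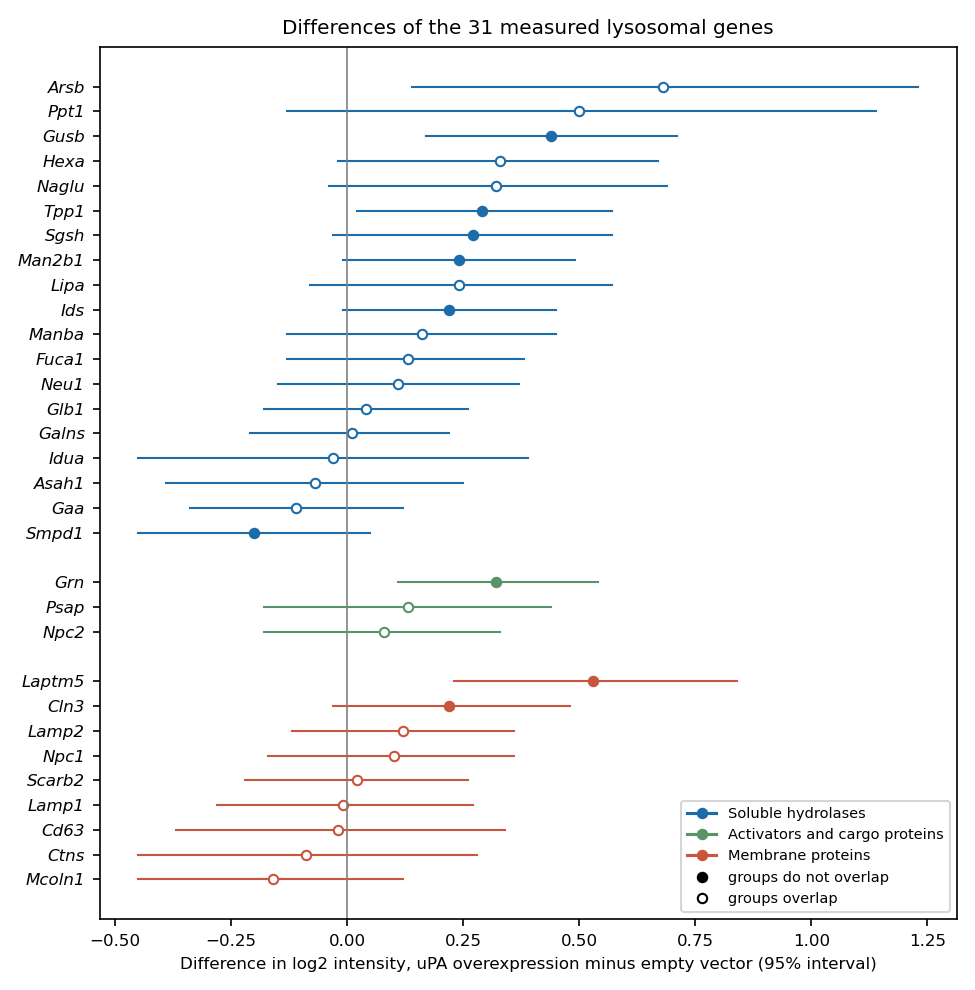
Normalised log2 intensity in the tumours labelled uPA overexpression minus that in empty vector tumours (horizontal axis, log2 units) for the 31 measured members, with 95% intervals from limma; filled points mark genes whose groups do not overlap. Of the 19 hydrolases 15 lie above 0, against 5 of the 9 membrane proteins.

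By the probe that stands for each gene, member enzymes that degrade glycosaminoglycans had differences above 0 for 6 of 7 genes. Their median was 0.27. Hyal1, a hyaluronidase gene that is not a member, fell by 0.61 on the log2 scale. Gusb encodes beta-glucuronidase, which removes glucuronic acid from several glycosaminoglycans. Its log2 intensity was 11.76, 11.70 and 11.47 on the empty vector arrays and 12.09, 12.03 and 12.12 on the arrays labelled uPA overexpression. All 3 of the latter were above all 3 of the former, by 1.36-fold on average, with a difference of 0.44 (SE 0.114, limma adjusted p = 0.0738, 95% interval 0.17 to 0.71).

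Arsb encodes arylsulfatase B, which removes sulfate from dermatan and chondroitin sulfate. Its values were 9.90, 10.39 and 9.88 in the empty vector tumours and 11.01, 10.27 and 10.94 in the others, and Arsb is given per array after its values were seen, since its groups overlapped. The second array labelled uPA overexpression lay within the empty vector range, while the other two lay above it. The difference of 0.68 was the widest of any member by the probe that stands for each gene (SE 0.232, adjusted p = 0.151, interval 0.14 to 1.23), and no alternative setting called it (adjusted p from 0.0570 to 0.355). By the mean of each gene's probes Arsb differed by 0.46, less than Gusb at 0.59 and Laptm5 at 0.53.

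Sulfatases of heparan and keratan sulfate followed with smaller differences. Ids, the iduronate sulfatase gene, read 10.08, 10.12 and 10.01 against 10.34, 10.22 and 10.31, a difference of 0.22 (SE 0.0973, adjusted p = 0.254). Sgsh, which encodes the sulfamidase of heparan sulfate, read 6.23, 6.23 and 5.89 against 6.49, 6.32 and 6.35, a difference of 0.27 (SE 0.130, adjusted p = 0.285). For both genes the groups did not overlap, and for Sgsh the nearest arrays were 6.23 and 6.32. The Sgsh difference was 0.16 without the third empty vector array and 0.15 both without background correction and in the deposited table, and that of Ids was 0.14 with scaling to the 75th percentile. Galns, a sulfatase gene of keratan sulfate breakdown, was nearly level across the 6 arrays by the probe that stands for it, from 6.62 to 6.65. Its other tested probe was dimmer and differed by -0.22 (SE 0.166). Naglu, which encodes the alpha-N-acetylglucosaminidase of heparan sulfate, differed by 0.32 (adjusted p = 0.289), and Idua, the alpha-iduronidase gene, by -0.03 (interval -0.45 to 0.39).

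**Figure D2:**
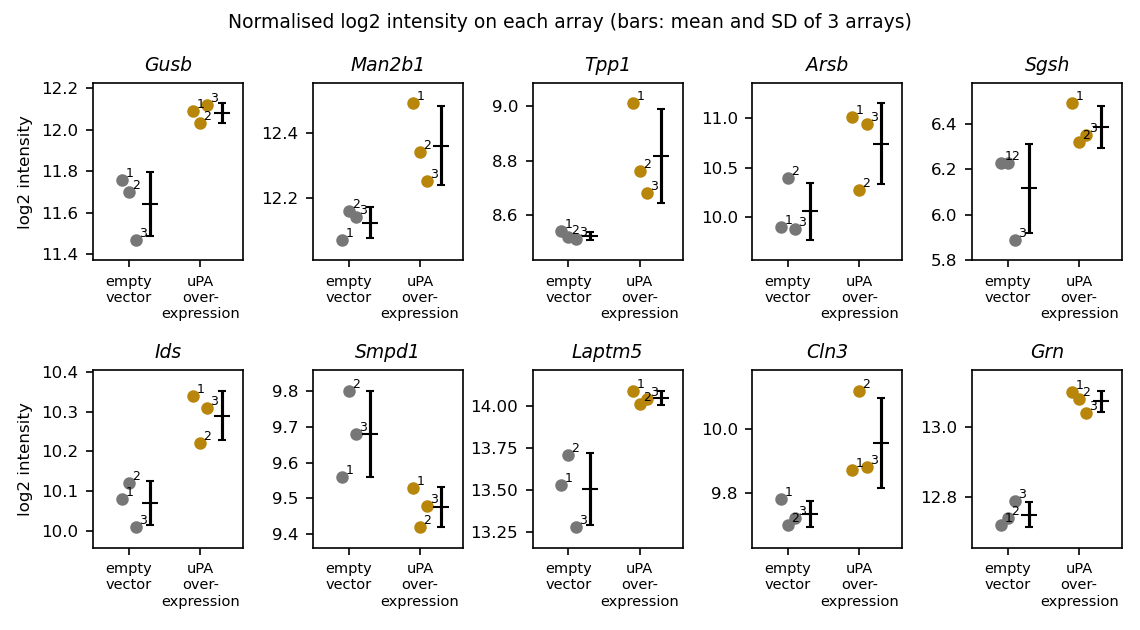
Normalised log2 intensity (vertical axis, a separate range for each gene that does not start at 0) on each of the 3 empty vector arrays and the 3 arrays labelled uPA overexpression, numbered by replicate, with the mean and SD beside them. Every gene shown but Arsb has groups that do not overlap, and Smpd1 is the one with lower values in the tumours labelled uPA overexpression.

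Among members, glycosidases of glycoproteins and sphingolipids lay above 0 for 6 of 6 measured genes by the probe that stands for each, from 0.04 to 0.33, with overlapping groups for all but Man2b1. Man2b1, the lysosomal alpha-mannosidase gene, read 12.07, 12.16 and 12.14 in the empty vector tumours and 12.49, 12.34 and 12.25 in the others. These groups did not overlap, and the difference was 0.24 (SE 0.107, adjusted p = 0.254). Hexa, the alpha subunit gene of beta-hexosaminidase, differed by 0.33 (adjusted p = 0.256), and Manba, the beta-mannosidase gene, by 0.16. Neu1, the sialidase gene, differed by 0.11 and Fuca1, the fucosidase gene, by 0.13. The Fuca1 probe was dim, from 5.24 to 5.49 over the arrays, and its difference was 0.05 in the deposited processed values. Glb1, which encodes beta-galactosidase, differed by 0.04 with an interval of -0.18 to 0.26, and its other tested probe by -0.28 (SE 0.178). Gaa, the glucosidase gene of lysosomal glycogen breakdown, differed by -0.11 (interval -0.34 to 0.12).

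Lipid and protein hydrolases went both ways. Tpp1, a tripeptidyl peptidase gene, read 8.54, 8.52 and 8.51 in the empty vector tumours and 9.01, 8.76 and 8.68 in the others. The empty vector arrays were nearly identical and all lay below the rest, with a difference of 0.29 (SE 0.117, adjusted p = 0.213), which was 0.19 without the first array labelled uPA overexpression. Smpd1, the acid sphingomyelinase gene, was the single member with separate groups in the lower direction, at 9.56, 9.80 and 9.68 against 9.53, 9.42 and 9.48, a difference of -0.20 (SE 0.106, adjusted p = 0.324). Its nearest arrays were 9.56 and 9.53. Ppt1, a palmitoyl-protein thioesterase gene, differed by 0.50, but the second empty vector array, at 7.67, was far below the other two (8.78 and 8.56), which were close to the 8.77, 8.98 and 8.77 of the other group (SE 0.271, adjusted p = 0.335). Lipa, the acid lipase gene of cholesteryl esters, differed by 0.24 (adjusted p = 0.356) and Asah1, the acid ceramidase gene, by -0.07 (adjusted p = 0.813).

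Membrane proteins were centred near 0, with 5 of 9 above it and a median of 0.02. The exception was Laptm5, a lysosomal protein gene of blood-lineage cells, at 13.53, 13.71 and 13.28 in the empty vector tumours and 14.09, 14.01 and 14.04 in the others. Its groups were separate, and the difference of 0.53 (SE 0.131, interval 0.23 to 0.84) missed the threshold at a limma adjusted p of 0.0623. For the structural and receptor proteins of the lysosomal membrane the groups overlapped. Lamp1 read 12.37, 12.61 and 12.26 against 12.41, 12.39 and 12.41, a difference of -0.01 with an interval of -0.28 to 0.27. Lamp2 differed by 0.12 (interval -0.12 to 0.36), the tetraspanin gene Cd63 by -0.02 (interval -0.37 to 0.34), and Scarb2, whose product carries glucocerebrosidase to the lysosome, by 0.02 (interval -0.22 to 0.26). The intervals of these 4 genes together span ratios from 0.774 to 1.28.

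Transporters and channels of the membrane had differences on both sides of 0. Cln3, mutated in a childhood neurodegeneration with lysosomal storage in humans, read 9.78, 9.70 and 9.72 in the empty vector tumours and 9.87, 10.12 and 9.88 in the others. The groups were separate, with a difference of 0.22 (SE 0.110, adjusted p = 0.294), which was 0.14 without the second array labelled uPA overexpression. Npc1, which exports cholesterol, differed by 0.10, Ctns, the cystine transporter gene, by -0.09, and the calcium channel gene Mcoln1 by -0.16. Their groups overlapped, with adjusted p of 0.676, 0.788 and 0.493. A dim second tested probe of Ctns differed by 0.23 (SE 0.115), with separate groups.

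Among soluble proteins that are not hydrolases, Grn stood apart. Grn encodes progranulin, a precursor that is cleaved in the lysosome, and its values were tightly grouped at 12.72, 12.74 and 12.79 against 13.10, 13.08 and 13.04. Its difference of 0.32 (SE 0.0926, interval 0.11 to 0.54) had a limma adjusted p of 0.0986. Psap, the precursor of the saposins that present sphingolipids to hydrolases, differed by 0.13 (adjusted p = 0.625), and Npc2, which hands cholesterol to NPC1, by 0.08 (adjusted p = 0.731). A further Psap probe was present in the processed table only, where its values were -0.15, 0.08 and -0.18 against 0.03, 0.20 and -0.02, a difference of 0.15. Both Tfeb probes were detected in 0 empty vector tumours and on 1 array labelled uPA overexpression, so no difference is given.

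Set side by side, hydrolases had a median of 0.22 and membrane proteins of 0.02. Groups were separate for 5 hydrolases higher and 1 lower of 19, and for 2 membrane proteins higher and 0 lower of 9. Over all genes tested, the groups were separate for 14.2% higher and 15.5% lower (29.7% in either direction). The ranges of both classes overlapped widely, from -0.20 to 0.68 and from -0.16 to 0.53. On single arrays the median deviation of the hydrolases from each gene's mean over 6 arrays was -0.08, -0.04 and -0.13 on the empty vector arrays and 0.16, 0.09 and 0.00 on those labelled uPA overexpression. For membrane proteins it was -0.04, -0.04 and -0.10 against 0.02, 0.04 and 0.01. Both classes thus had every array labelled uPA overexpression above every empty vector array, by a small margin. The medians of hydrolases and membrane proteins were not tested against each other, and the hydrolase median was 0.14 with scaling to the 75th percentile or without a filter, and 0.15 where background was not corrected.

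**Figure D3:**
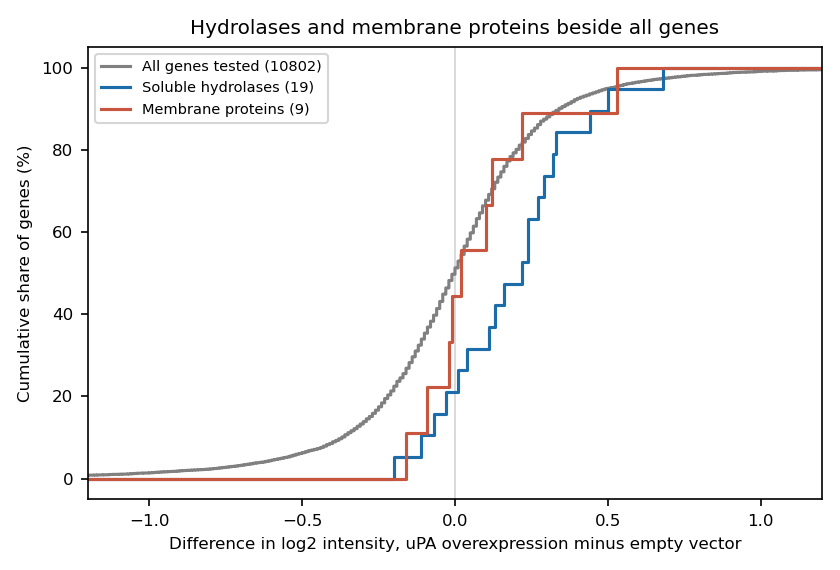
Cumulative share of genes (vertical axis, percent) by difference in log2 intensity (horizontal axis) for 19 hydrolases, 9 membrane proteins and all 10802 genes tested, with the axis limited so that the most extreme genes are not drawn. The curve of the hydrolases lies to the right of the other two through most of its range, with a median of 0.22 against 0.02 and 0.00.

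The differences of members were also listed by whether a promoter held the CACGTG core, without a test. The 7 measured members with it had a median of 0.04, from -0.16 (Mcoln1) to 0.32 (Naglu), with 4 above 0. The 21 measured members without it had a median of 0.16, from -0.20 (Smpd1) to 0.68 (Arsb), with 17 above 0. Lamp1, with 4 cores, differed by -0.01. Over all tested genes with a promoter in the table, the median was 0.02 with the core and 0.00 without it.

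Several members are read by more than 1 probe, and these differed among themselves. Of the 79 probes 78 could be joined to raw values and 56 were tested, of which 38 lay above 0 and 0 were called over all probes. Of 14 members with several tested probes, 6 had all probes on the same side of 0 and 8 had probes on both sides. Gusb was the clearest case of the former, with its 4 probes at 0.36, 0.44, 0.56 and 1.01. The probe at 0.56 came nearest to a call (limma adjusted p over probes = 0.0525). The 1.01 rests in part on the second empty vector array, at 6.84 beside 8.05 and 8.05, against 8.50, 8.78 and 8.69. The probe at 0.36 was dim, with a difference of 0.16 in the deposited processed values. Man2b1 had 0.24 and 0.39, Arsb 0.68 and 0.24, and Smpd1 -0.20, -0.12 and -0.12. Lamp2 had 7 tested probes, from -0.32 to 0.17. Asah1 had a further probe at 0.67 (SE 0.468) beside its -0.07, and Cd63 had probes at 0.46 (SE 0.272) and 0.09 beside -0.02. A dim Npc1 probe was detected in 0 empty vector tumours and in all 3 others, without a measurable fold over the detection floor. The position of each probe within its transcript was not used here.

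**Figure D4:**
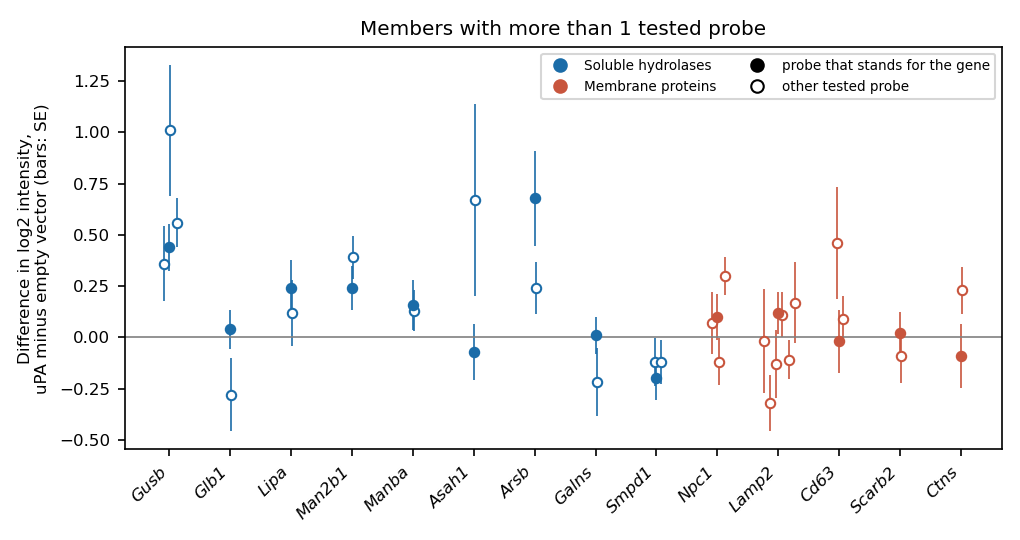
Difference in log2 intensity (vertical axis, with SE) of every tested probe of the 14 members that have more than 1, with the probe that stands for the gene filled. The 4 Gusb probes all lie above 0, while the 7 Lamp2 probes fall on both sides.

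Among other genes of the lysosome, 2 were called, Hyal1 and Slc11a1, where 5.42% of all tested genes were called in either direction. Of 15 measured other hydrolases and helper proteins 13 lay above 0 with a median of 0.27, and 0 rose and 1 fell. The gene that fell was Hyal1, a hyaluronidase gene, at 6.40, 6.33 and 6.28 against 5.80, 5.76 and 5.62, by 0.61 on the log2 scale (SE 0.101, limma adjusted p = 0.0223). Creg1 at 0.68 (adjusted p = 0.0522), the legumain gene Lgmn at 0.41 (0.0589) and Gm2a, a ganglioside activator gene, at 0.51 (0.112) lay highest by p among the others. The Hyal1 difference was -0.33 without background correction, -0.40 with offset 50 and -0.32 in the deposited values, still called.

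Other lysosomal membrane proteins had a median of 0.11 over 21 measured genes, with 17 above 0, of which 1 rose and 0 fell. Slc11a1, a metal ion transporter of phagocyte lysosomes, read 10.74, 10.92 and 10.88 against 11.39, 11.43 and 11.37. It rose by 0.55 (SE 0.0998, adjusted p = 0.0287), and its other probes gave 1.36, 1.49 and 1.77, so that the mean of its probes was 1.29. Slc29a3, a nucleoside transporter gene, differed by 0.50 (adjusted p = 0.0630). The Hyal1 and Slc11a1 calls were lost without any single array other than the second empty vector array (adjusted p from 0.0578 to 0.102).

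Genes of acidification, sorting and nutrient sensing had no call in either direction. Over 16 measured subunits of the vacuolar ATPase, the pump that acidifies the lysosome, the median was 0.02, with 8 above and 8 below 0. Atp6v1d had the smallest p of them, at -0.29 (adjusted p = 0.223). Of 16 genes of mannose 6-phosphate tagging and other sorting, 9 lay above 0 with a median of 0.08. Nagpa, which uncovers the mannose 6-phosphate tag, differed by 0.45 (adjusted p = 0.0964) and Igf2r, a receptor for the tag, by -0.31 (adjusted p = 0.163). Of 10 measured TFEB relatives and nutrient sensing genes 9 lay above 0, with a median of 0.11, and Lamtor1, a scaffold gene of nutrient sensing on the lysosome, differed by 0.38 (adjusted p = 0.0832).

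Markers of several cell types changed between the same groups. Of 17 measured macrophage and monocyte markers 11 rose and 0 fell, with a median of 0.80, and their summed normalised intensity ran from 29458 to 35881 in the empty vector tumours and from 59107 to 70992 in the others. The summed intensity of the 31 members ran from 88440 to 93042 and from 101499 to 104301. Without a single array, the number of macrophage markers that rose was 1, 13 and 2 when empty vector array 1, 2 or 3 was left out, and 0, 8 and 3 when array 1, 2 or 3 of the other group was. Of this list Itgam rose by 0.90 (SE 0.101) and C1qb by 0.88 (SE 0.102), while Marco was above background on only 2 arrays. The Itgam probe was dim, with a mean of 5.34 in the empty vector tumours. Without background correction its difference was 0.45, and that of C1qb was 0.87. Whether macrophage content had a part in the differences of the members was not tested.

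Epithelial markers moved the other way: 0 of 10 rose and 7 fell, with a median of -1.0, and their summed intensity ran from 30311 to 35092 and from 14112 to 18918. Krt14, a basal keratin gene, fell by 1.40 (SE 0.160), and Epcam was above background on 0 arrays. Without a single array, the number that fell was 0, 6 and 3 when empty vector array 1, 2 or 3 was left out, and 0, 7 and 2 when array 1, 2 or 3 of the other group was. Of 7 pan-leukocyte markers 1 rose, Cd52, with a median of 0.40. Of 8 mast cell markers 6 rose, with a median of 1.81, and of 5 lymphocyte markers 1 rose. Of 6 neutrophil markers 1 fell, with a median of -0.36 and with Mmp8 and Ngp above background on 0 arrays. Of 10 fibroblast markers 1 fell, and 0 of 7 endothelial, 5 skeletal muscle and 5 adipocyte markers were called. The summed intensity of the muscle markers was 8572 in the third tumour labelled uPA overexpression and at most 2267 in the others. The part of these cells in the members' values was not tested either.

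**Figure D5:**
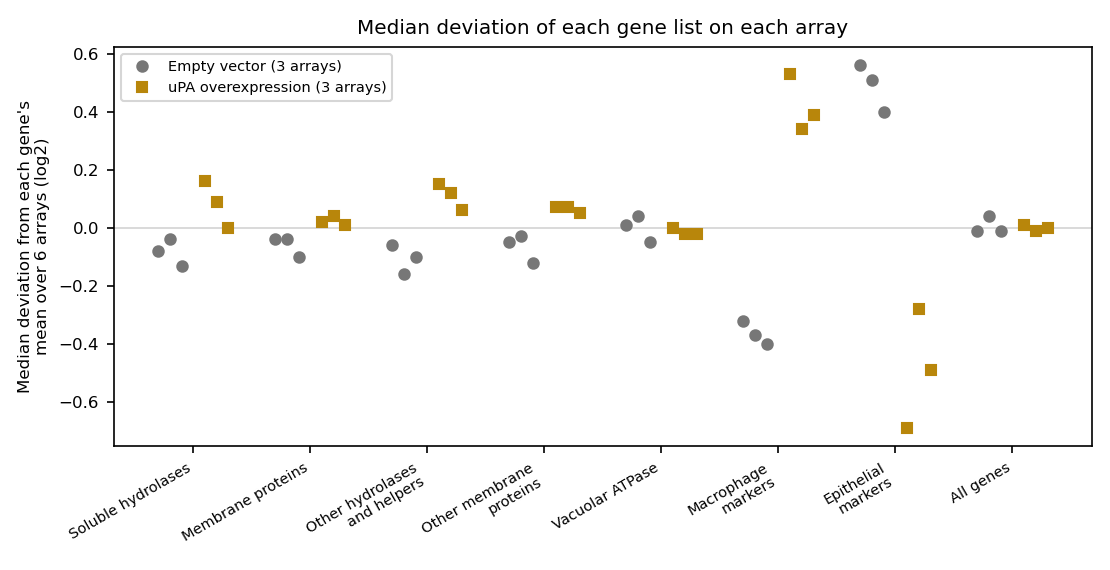
Median deviation of each list's genes from their own mean over the 6 arrays (vertical axis, log2 units), with a point for each array, for the members and for lists of other genes. Hydrolases range from -0.13 to 0.16 over the arrays, macrophage markers from -0.40 to 0.53 and epithelial markers from -0.69 to 0.56.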

How the data were processed

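RNA from 3 empty vector tumours and 3 tumours labelled uPA overexpression was read on Illumina MouseWG-6 version 2.0 BeadChips. The deposited raw table holds an unnormalised intensity per probe and a detection value, a fraction that rises to 1 with intensity and was turned into a p-value by subtraction from 1, although the file header calls it a p-value. The deposited processed table is in log2 units and came from GeneSpring GX 11.0, per the series text; each probe is centred on an unknown level, and column medians were 0.00227, 0.0042, 0.00197, 0.00332, 0.00247 and 0.00288 in the order of the labels. Scanner settings were not given in the sources used here.

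Probe names differ between both tables, which were joined by values, as mutual nearest rows at least 3 times nearer than the next: 45107 of 45281 rows matched. The median distance was 0.000213 to the matched row and 0.0325 to the next. Gene names came from the platform annotation and were checked against RefSeq (GRCm38.p6, 0 symbols updated). Background was corrected by normexp with offset 16, followed by quantile normalisation (limma 3.58.1, R 4.3.3; joining in Python 3.11.15). The 20434 probes detected on at least 3 arrays were fitted with lmFit and eBayes without covariates, two-sided. The probe with the highest mean stood for a gene, and p-values were adjusted (Benjamini-Hochberg) over 10802 genes. The fit was tested on simulated data. Promoter sequences are from RefSeq, and the genome build of the array design was not used.

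Members, lists and tests were chosen with earlier results of these data known. Named were all members with array values where groups were separate, up to 4 genes of each other list by smallest p, and Plau. Lists are described by counts and medians, without a test of the list. No paired fit was used as the main one, since the labels state no pairing.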

Additional observations from a re-analysis of the deposited data

How the results depend on the processing

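Of the 10 members plotted by array, none changed direction under any of 17 alternatives. All of them but Arsb were plotted because their groups were separate. For such genes, leaving out or weighting arrays cannot reverse the direction, so those alternatives do not test it. The count of members that rose, 0 in the fit as described, was 3 (Grn, Gusb and Laptm5) without background correction, with offset 50, in the deposited processed values and with a trended and robust variance prior. It was 2 with array weights (Gusb and Laptm5), 1 without a filter (Grn) and 1 with the mean over a gene's probes (Gusb). Leaving out each array in turn gave 0 to 1, the 1 being Laptm5 without the second empty vector array (adjusted p = 0.0344). Over the alternatives the limma adjusted p ran from 0.0202 to 0.217 for Gusb, from 0.0145 to 0.174 for Laptm5 and from 0.0173 to 0.292 for Grn. No member fell under any alternative. The cause was not tested.

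The median of the hydrolases was 0.14 with scaling to the 75th percentile and 0.14 without a filter. That of membrane proteins was -0.02 with that scaling, 0.06 with array weights and 0.07 with the mean of all probes. Leaving out each array gave 0.16 to 0.24 and 0.00 to 0.09. Scaling to the 75th percentile moved the median of all genes to -0.05.

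Over all genes, 250 rose and 336 fell. These counts were 367 and 481 without background correction, 348 and 454 with offset 50, 367 and 485 in the deposited values, 230 and 308 without a filter, 297 and 363 with the mean of probes, 503 and 573 with array weights, 380 and 490 with the trended prior, 0 and 0 by the ordinary test, and 8 to 295 and 16 to 309 with each array left out. With a replicate block they were 30 and 47, 0 members were called, and Hyal1 and Slc11a1 had adjusted p of 0.0883 and 0.109. Deviations of same-numbered arrays correlated at -0.19, -0.26 and 0.07, and those of differently numbered arrays at -0.12 to 0.32. With 3 arrays per group, these values cannot show whether the numbers pair the samples. Dim probes such as those of Tfeb, Gla, Plbd1 and Plbd2 are limited by background.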
